A study of Mus musculus with 82 samples.

Results

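The actin and tubulin genes examined here are 7 of the 24743 RefSeq genes of GRCm38 that were counted, and they were chosen by name, not by a measured value. Actb and Actg1 encode the β and γ cytoplasmic actins. Tuba1a, Tuba1b and Tuba1c encode α-tubulins, and Tubb5 and Tubb4b encode β-tubulins. Nascent RNA, the RNA still held by RNA polymerase, was measured in V6.5 mouse embryonic stem (ES) cells, an established hybrid line grown in serum with LIF on gelatin, and all groups came from this line without a further treatment. In the 3 assays the polymerase adds a click-compatible nucleotide to the RNA 3′ end before capture. For scGRO–seq this took place in intact nuclei, which were then sorted singly into wells. This assay is represented by 2525 kept cells in 10 named batches. inAGTuC used wells of intact nuclei (4 libraries), and AGTuC used bulk nuclei whose membranes a stronger sarkosyl step disrupts (2 libraries). The AGTuC libraries were from 1 experiment, so experiment and assay cannot be told apart. Nothing in the labels says that batches or libraries were separate cultures, and p-values then measure only the spread between these samples, which may be technical.

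Actin filaments and microtubules are the main polymers of the cytoskeleton, and their subunits are among the most abundant proteins of dividing cells. Monomer actin holds back the MRTF coactivators of SRF, a factor that binds the CArG box of many actin genes. Free tubulin shortens the life of tubulin mRNA, a feedback that acts on the mature transcript during translation. Many actin and tubulin genes have close relatives in the genome, both expressed genes and processed pseudogenes that lack introns.

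Reads kept per batch ranged from 222963 to 4919704 in scGRO–seq, from 622112 to 1461204 in inAGTuC, and were 2231583 and 4755258 in AGTuC. Of the reads of the 10 batches, 28.9% were shared between libraries and were left out. A list labelled scGRO–seq Exp261_c16 held the molecules of the inAGTuC list of that name (99.7%), so it was not counted, and the assay of these reads rests on the label. Without the inAGTuC library Exp261_c16, the number of members called was as given below in each comparison of body level and of exons over introns between assays, and is given where it changed for the others. The 6 ES cell markers summed to 1009 and 1047 UMIs per 1000000 in AGTuC, 268 to 606 in inAGTuC and 177 to 937 in scGRO–seq, and the 6 fibroblast or feeder markers summed to 11.03 to 44.6 over all libraries and batches. The 4 primitive endoderm markers summed to 24.2 and 24.4 in AGTuC, 15.2 to 50.0 in inAGTuC and 5.52 to 39.9 in scGRO–seq. The 4 neural markers were higher in AGTuC, at 56.01 and 60.8, against 13.003 to 17.9 in inAGTuC and 5.37 to 31.4 in scGRO–seq, and of the 2 tested Sox1 rose (log2 3.34) and Pax6 fell (log2 -5.13) in AGTuC against inAGTuC. The part of these markers in the results was not tested. Counting intervals and floors here cover counting error only.

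The members are short. Actb lies at chr5:142903115-142906754 on the minus strand with 6 exons. Actg1 lies at chr11:120345687-120348495 on the minus strand with 7 exons. The α-tubulin genes sit close together on chromosome 15, Tuba1b at chr15:98931429-98934390 and Tuba1a at chr15:98949847-98953501 on the minus strand, and Tuba1c at chr15:99029891-99038105 on the plus strand. Tubb5 lies at chr17:35833920-35838301 and Tubb4b at chr2:25222158-25224702, both on the minus strand. The tubulin genes have 4 exons each, and only Tuba1c, with 8215 bases, is longer than 5 kb.

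The promoters of 3 members are shown because they differ in the motifs they hold, in a window from 250 bases before to 50 bases after the RefSeq start (GRCm38.p6). Capitals mark matches, on either strand, to the TATA motif TATAAA, to the CCAAT box as spelled, to the Sp1 motif GGGCGG and to the CArG box. The Actg1 promoter is chr11:120348446-120348745, that of Tuba1b chr15:98934341-98934640 and that of Tubb4b chr2:25224653-25224952, all on the minus strand.
Actg1: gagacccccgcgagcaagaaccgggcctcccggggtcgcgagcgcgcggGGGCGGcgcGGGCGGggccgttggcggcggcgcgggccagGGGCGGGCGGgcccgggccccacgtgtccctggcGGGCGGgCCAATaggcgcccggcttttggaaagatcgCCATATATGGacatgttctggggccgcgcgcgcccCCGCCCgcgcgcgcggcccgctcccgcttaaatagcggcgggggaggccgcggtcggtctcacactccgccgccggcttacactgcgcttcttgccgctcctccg
Tuba1b: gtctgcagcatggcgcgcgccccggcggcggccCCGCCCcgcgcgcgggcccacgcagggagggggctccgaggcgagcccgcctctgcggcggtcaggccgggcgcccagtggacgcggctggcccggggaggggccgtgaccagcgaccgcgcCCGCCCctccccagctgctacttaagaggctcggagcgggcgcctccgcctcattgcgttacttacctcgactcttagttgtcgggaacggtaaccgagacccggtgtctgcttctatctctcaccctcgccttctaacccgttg
Tubb4b: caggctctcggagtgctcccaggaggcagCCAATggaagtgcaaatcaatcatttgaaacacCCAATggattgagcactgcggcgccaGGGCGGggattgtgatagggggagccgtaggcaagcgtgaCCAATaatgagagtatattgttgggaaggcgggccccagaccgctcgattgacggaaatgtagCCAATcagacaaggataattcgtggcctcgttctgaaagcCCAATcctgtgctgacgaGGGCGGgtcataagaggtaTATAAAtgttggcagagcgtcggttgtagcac
Actb had no promoter entry and was not scanned. The CArG box was found in 1 of the 6 members with an entry, in Actg1 at -90 to -81, and in 1.629% of 32851 promoters. TATAAA was found in Tubb4b alone of these 6, at 19 to 24 bases past the start, and in 13.62% of all promoters. CCAAT and GGGCGG were each found in 5 of the 6 members, and in 37.41% and 35.66% of all promoters. Of the Actg1 matches to GGGCGG, those at -161 to -156 and -157 to -152 overlap.

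The coding sequences show how much the members share, which bears on where a read can be placed. The longest run of bases shared by the coding sequences of Actb (chr5:142904101-142904162) and Actg1 (chr11:120346671-120346732) was 62 bases, and 88.65% of their 1128 coding bases were identical. The coding sequences of Tuba1a and Tuba1b were identical at 98.3% of bases. The longest run shared by Tubb5 (chr17:35835502-35835527) and Tubb4b (chr2:25222831-25222856) was 26 bases, with 82.21% identity.
Actb and Actg1: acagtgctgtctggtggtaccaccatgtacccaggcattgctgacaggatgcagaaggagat
Tubb5 and Tubb4b: cacttcttcatgcctggctttgcccc
The share of exon bases past the first 500 bases of the gene whose preceding 48 bases occur elsewhere in GRCm38 was 1.97% in Tubb5, 14.4% in Actb, 59.4% in Tubb4b, 73.2% in Tuba1a, 82.0% in Tuba1c, 86.5% in Actg1 and 90.0% in Tuba1b. In introns this share ran from 0 to 19.1%. Exon levels of the last 5 genes are therefore uncertain, and reads of their copies cannot be told apart from their own.

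The first comparison asks whether transcription of the gene bodies, past the first 500 bases, differed between assays. All 7 members were higher in AGTuC than in inAGTuC, by log2 1.69 (Actb) to 2.89 (Actg1), in a fit in which 34.6% of 15123 genes were called and 17.8% were higher. In UMIs per kb per 1000000 kept reads, the Actb body was at 37.7 and 31.6 in AGTuC, and at 10.8, 9.70, 5.01 and 15.4 in inAGTuC. Its level in scGRO–seq was lowest at 3.48, had a median of 9.70 and was highest at 38.1 over the 10 batches. AGTuC lay above every inAGTuC library, but overlapped the scGRO–seq batches, since Exp208 reached 38.1. Exp264a, the next batch at 31.2, lay below both AGTuC libraries. In the introns alone they did not overlap, with 70.8 and 53.9 in AGTuC and at most 23.7, from 7 UMIs of Exp156, in scGRO–seq. The Actb change was log2 1.69 (SE 0.43, adjusted p = 0.0053, limma voom with Benjamini-Hochberg adjustment) between AGTuC and inAGTuC. This change rests largely on reads near the start. The 100-base bins starting at 500 to 900 bases held 42, 121, 99, 124 and 57 of the 736 AGTuC body UMIs. In scGRO–seq they held 2, 1, 2, 2 and 2 of 454, and in inAGTuC the bin at 500 held 1 of 139. The Actb body past these bins was not tested.

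The Tubb5 body was at 34.3 and 29.6 in AGTuC and at 4.55, 5.65, 4.05 and 9.41 in inAGTuC, on the same scale. In scGRO–seq it had a lowest value of 4.61, a median of 7.81 and a highest of 20.5. AGTuC overlapped neither of the other assays, with a log2 change of 2.28 over inAGTuC (SE 0.35, adjusted p = 0.00016, limma voom). Over the whole body the other members were lower: AGTuC gave 12.8 and 15.2 for Actg1, 14.01 in both libraries for Tuba1b, 13.4 and 12.1 for Tubb4b, 7.55 and 6.62 for Tuba1c and 2.41 and 1.93 for Tuba1a. In these 5 genes no inAGTuC library and no scGRO–seq batch exceeded 9.11. Their body levels include exon bases with copies elsewhere. On body exon bases whose preceding 48 bases have no exact copy, AGTuC was at 51.5 in Tuba1b (150 bases) and 43.9 in Actg1 (241 bases). It was at 17.9 in Tubb4b, 12.9 in Tuba1c and 3.12 in Tuba1a, against 23.9 in Tubb5 and 15.6 in Actb. The order of the members on these bases was not tested. By body UMIs per kb, Actb ranked 40 and Tubb5 48 of 18031 genes with a UMI in AGTuC, 91 and 156 of 21448 in inAGTuC, and 90 and 99 of 22055 in scGRO–seq. Tuba1a, a gene best known from neurons, ranked 3127, 8380 and 4938 in the same order.

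The calls between AGTuC and inAGTuC were lost for Tuba1a with limma trend, with experiment as a random block and without either AGTuC library, for Tubb4b with limma trend and for Actb without Exp125c_c02 (adjusted p 0.054 to 0.098).

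Against AGTuC, all 7 members were lower in scGRO–seq, by log2 1.30 (Tuba1a) to 2.98 (Tuba1c), where 52.3% of genes were called and 32.7% were lower. Here the call was lost for Tuba1a with limma trend, upper-quartile scaling and without either AGTuC library, and for Actb with upper-quartile scaling (adjusted p 0.056 to 0.16). Between scGRO–seq and inAGTuC none of the 7 was called, nor was any gene of the table (0.0%, limma voom; 836 genes had an unadjusted p under 0.05, none of them a member). The member nearest to the threshold was Tubb5, at log2 0.63 (SE 0.31, unadjusted p = 0.055, adjusted p = 0.84). Of the experiments used, Exp208 held both of these assays, and there the Actb body was at 38.1 in the scGRO–seq batch against 10.8 and 9.70 in the inAGTuC libraries, a difference with no test of its own. It lay in the exons, at 63.7 against 15.04 and 16.1, whereas the introns were at 3.02 against 4.86 and 0.92. The 3 comparisons share libraries, and in bulk libraries more transcribing cells and more transcription per cell cannot be told apart. The median change between AGTuC and inAGTuC was 2.28 over the members and 0.19 over all genes tested.

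**Figure D1:**
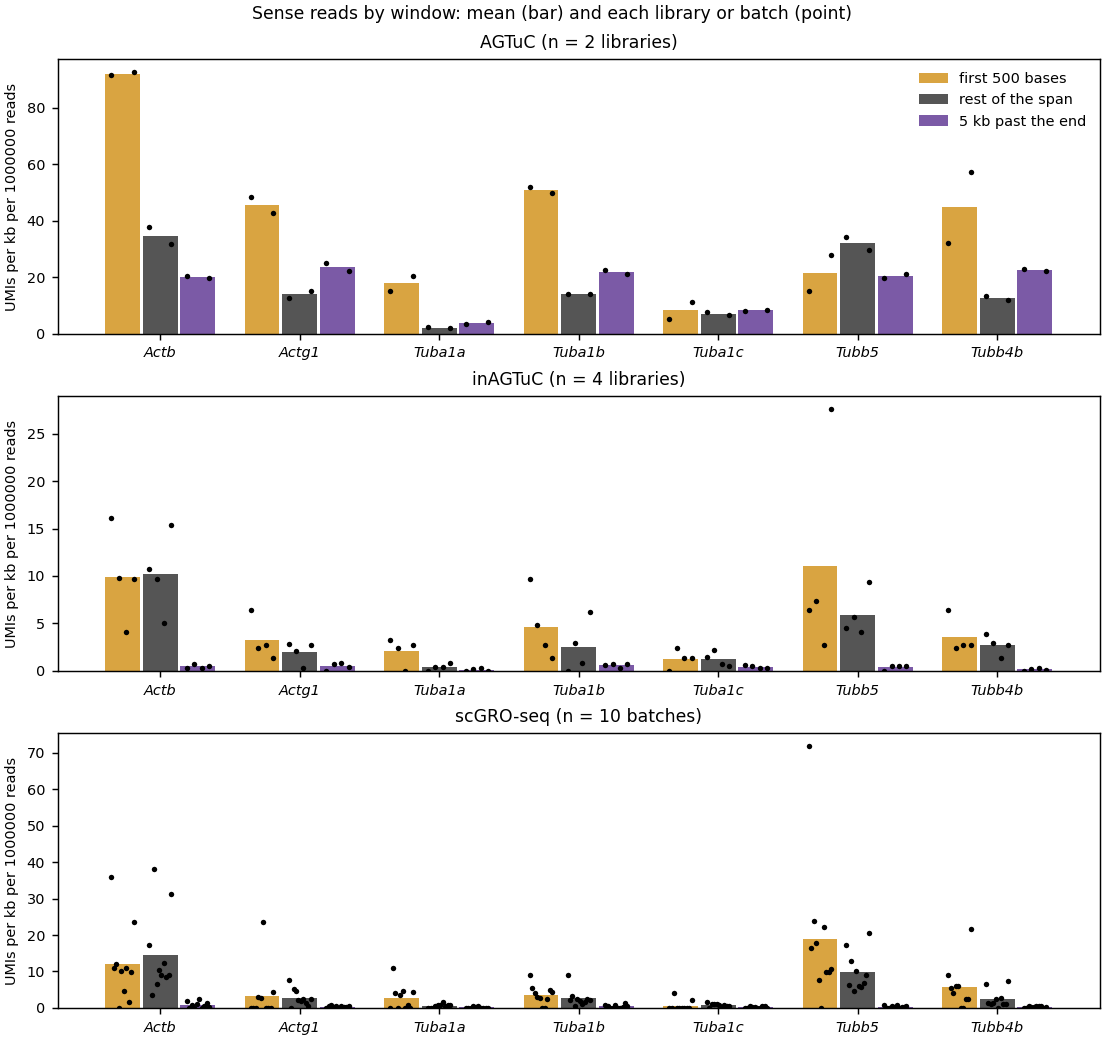
Sense UMIs per kb per 1000000 kept reads (y axis, linear, a different range in each panel) in the first 500 bases, the rest of the span and the 5 kb past the end of each member (x axis), as the mean (bar) and every library or batch (point). Past the end, the AGTuC libraries sit between 3.41 and 25.2, and no inAGTuC library or scGRO–seq batch exceeds 2.35.

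Promoter reads were next set against the body, since polymerase paused near the start runs on poorly without strong sarkosyl. None of the 6 members tested was called, whereas 63.3% of 7317 genes were called between AGTuC and inAGTuC and 70.7% between scGRO–seq and AGTuC. Between scGRO–seq and inAGTuC the share was 0.0% (314 genes at an unadjusted p under 0.05). The median log2 change in promoter over body between AGTuC and inAGTuC was 0.72 over the 6 members and 2.63 over all genes. The largest was that of Actb, at 1.39 (SE 0.95, adjusted p = 0.18, limma voom), and the only negative one was that of Tubb5, at -1.27 (SE 0.96, adjusted p = 0.23, limma voom). The standard errors of the members were 0.93 to 1.05, and their changes lay between the percentiles 0.27 and 17.9 of those of all genes tested. A p that misses the threshold does not show that the assays were alike. In Actb, reads near the start reached past the promoter window in AGTuC. That window held 322 UMIs, and the bins starting at 500 to 900 bases held 42, 121, 99, 124 and 57. Counted as body, these lower the Actb ratio in AGTuC. In inAGTuC the window held 19 UMIs and the bin at 500 held 1. A promoter window reaching past 500 bases was not tested. Of the 6 ES cell markers 5 were tested and 0 were called (0 at an unadjusted p under 0.05, limma voom), with a median of 0.60. Between scGRO–seq and AGTuC, Actb was nearest to the threshold, at log2 -1.75 (SE 0.85, unadjusted p = 0.043, adjusted p = 0.059, limma voom). It was called under 6 alternatives, with all deposited reads, with cells kept by UMIs alone and without Exp156, Exp160, Exp234_c11 or Exp261_c16 (adjusted p 0.031 to 0.041). Tuba1c was not tested, with 33, 3 and 2 promoter UMIs in AGTuC, inAGTuC and scGRO–seq.

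The levels of the first 500 bases themselves differed widely. Actb had 91.4 and 92.5 UMIs per kb per 1000000 there in AGTuC, 4.11 to 16.1 in inAGTuC and 0 to 35.9 in scGRO–seq, and AGTuC overlapped neither other assay. Summed over libraries and per base, the promoter exceeded the AGTuC body 2.75 times for Actb, 3.09 for Actg1, 9.05 for Tuba1a, 3.596 for Tuba1b and 3.93 for Tubb4b. Tubb5 was the exception, at 0.76 times, against 2.00 in inAGTuC and 1.196 in scGRO–seq. Of the 27 Tubb5 promoter UMIs in inAGTuC, 20 came from Exp261_c16, whose assay rests on the label. The Tubb5 promoter level was 15.2 and 27.8 in AGTuC, below its body at 34.3 and 29.6. It lay inside the range of scGRO–seq, in which Exp156 reached 71.8 from 8 UMIs.

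Past the annotated end, polymerase keeps transcribing while the transcript is cleaved and polyadenylated. The AGTuC reads of the members did so, and those of the intact nuclei were few. In the 5 kb past the end, Actb had 20.6 and 19.9 UMIs per kb per 1000000 in AGTuC. It had 0.32, 0.73, 0.27 and 0.55 in inAGTuC, and 0 to 2.35, with a median of 0.69, in scGRO–seq. Tubb4b, the shortest member, had 23.03 and 22.1 in AGTuC and at most 0.27 in inAGTuC and 0.55 in scGRO–seq. Even Tuba1a was separate, at 3.41 and 4.04 in AGTuC against at most 0.60 elsewhere. In AGTuC between 79.5% (Actb) and 98.9% (Actg1) of the downstream UMIs fell in the first 2 kb.

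Relative to the body, the downstream window was higher in AGTuC than in inAGTuC for 5 of 7 members (44.2% of 7130 genes were called, 43.2% higher). These were Tubb4b at log2 4.24 (SE 0.95, adjusted p = 0.0014), Actb at 3.39, Tubb5 at 3.02, Actg1 at 2.52 and Tuba1b at 2.26 (adjusted p = 0.041, all limma voom). Tuba1b was not past the threshold when the minimum of 50 UMIs was set over both windows together (adjusted p = 0.061). Tuba1a (2.20, adjusted p = 0.059) and Tuba1c (1.44, adjusted p = 0.15) were not called. In scGRO–seq against AGTuC, 6 of 7 were lower, all but Tuba1c at -1.53 (adjusted p = 0.081), beside 48.6% of genes called and 47.5% lower. Between scGRO–seq and inAGTuC no member was called (0.0% of genes; 385 at an unadjusted p under 0.05, no member among them). The body in these ratios, and in promoter over body, holds different shares of exon reads by assay. Exons held 121 of 139 Actb and 82 of 105 Tubb5 body UMIs in inAGTuC, against 188 of 736 and 387 of 844 in AGTuC. Ratios to introns alone were not tested. Without Exp208_c14 or without Exp261_c16, 3 members were called in AGTuC against inAGTuC. Without either AGTuC library, which leaves 1 AGTuC sample assumed to vary like the other groups, 1 member was called in AGTuC against inAGTuC and 1 in scGRO–seq against AGTuC, and over all genes the calls of the former fell from 3152 to 386 and 426.

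**Figure D2:**
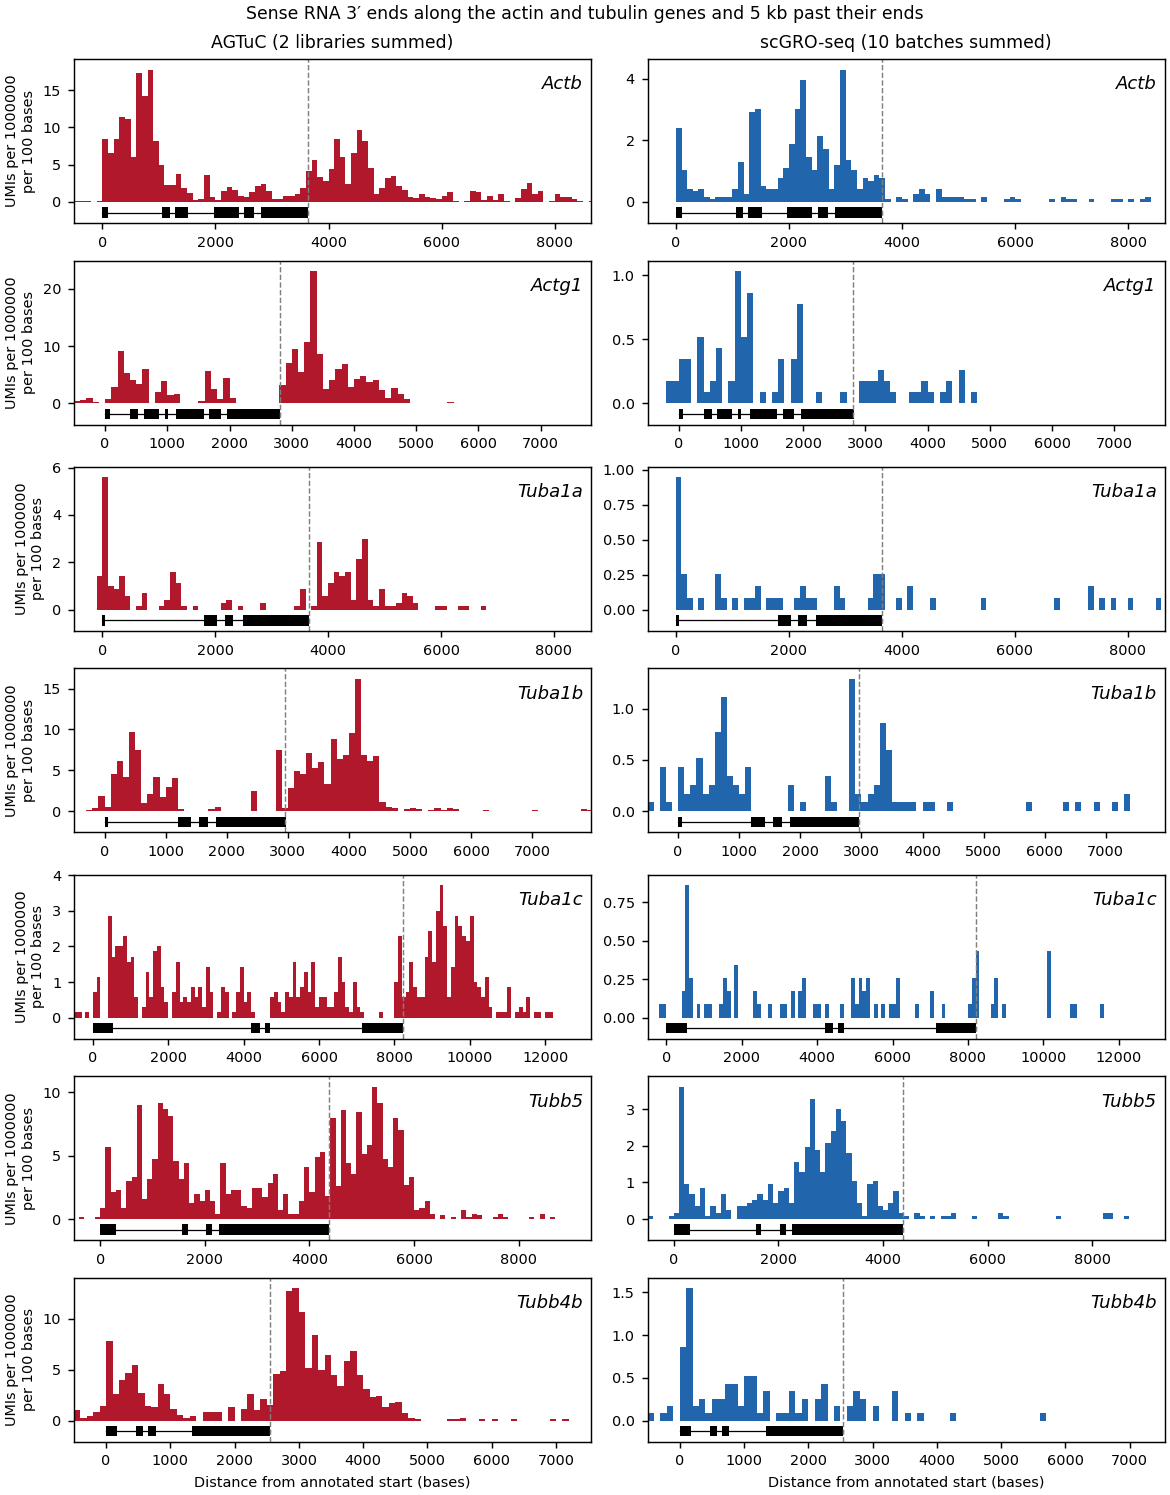
Sense UMIs per 1000000 kept reads in bins of 100 bases (y axis, linear, a different range in each panel) against the distance from the annotated start in bases (x axis), for AGTuC (left) and scGRO–seq (right). Black boxes are exons and the dashed line is the annotated end. In Actb the AGTuC reads are highest before the second exon and the scGRO–seq reads over the later exons.

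Within the gene bodies, Actb and Tubb5 differed between the assays in where the reads ended, a comparison chosen after the values were seen. Exons held 20.8% and 28.2% of the Actb body UMIs in AGTuC, 81.0%, 96.0%, 78.3% and 88.6% in inAGTuC, and in scGRO–seq from 41.7% upwards, with a median of 85.7% and all 4 UMIs of Exp160. The AGTuC libraries lay below all others. The value of 41.7% came from 12 UMIs of Exp156. In Tubb5 the share was 42.8% and 47.5% in AGTuC, 72.2%, 69.6% and 79.2% in inAGTuC beside all 11 UMIs of Exp208_c12, and 66.7% to 94.6% in scGRO–seq, again without overlap. Over all genes, summed by assay, exons held 17.3%, 14.5% and 14.3% of body UMIs.

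On exon over intron UMIs, 2 of the 5 members tested were lower in AGTuC than in inAGTuC, where 12.5% of 7343 genes were called and 8.24% were lower. Actb changed by log2 -4.19 (SE 0.59, adjusted p = 6.8e-06) and Tubb5 by -2.15 (SE 0.52, adjusted p = 0.0067, limma voom). With limma trend the Tubb5 call was lost, at -2.49 (adjusted p = 0.14). The same pair was higher in scGRO–seq than in AGTuC, by log2 4.00 (SE 0.42, adjusted p = 6.5e-09) and 2.40 (SE 0.35, adjusted p = 5.6e-06), beside 29.5% of genes called and 22.7% higher. Between scGRO–seq and inAGTuC no member and 0.0136% of genes were called. For Actg1, Tuba1b and Tubb4b the log2 changes in these comparisons ran from -0.34 to 0.92, and none was called. Tuba1a and Tuba1c had under 50 UMIs in exons and were not tested.

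Per kb, summed over libraries, the Actb introns were at 59.3 UMIs per 1000000 in AGTuC, 3.12 in inAGTuC and 4.23 in scGRO–seq, whereas its exons were at 14.8, 15.3 and 18.4. On the 1556 Actb exon bases whose preceding 48 bases have no exact copy elsewhere, the levels were 15.6, 17.4 and 19.8 in the same order. Copies with mismatches were not counted, so reads on these bases may still have other close matches. The Tubb5 introns were at 42.4, 3.43 and 4.35 and its exons at 23.7, 8.05 and 13.1. In Actg1, of which 241 body exon bases have no such exact copy, those bases were at 43.9 and the introns at 37.1 in AGTuC, and at 6.78 and 5.20 in scGRO–seq. Mapping scores and read lengths are given beside these levels. The median mapping score of the Actb exon reads was 22 in scGRO–seq, against 42 in its introns, and 23 against 40 in AGTuC. In inAGTuC it was 23 against 39.5. In Tubb5 it was 24 in exons and 26 in introns in scGRO–seq, 24 and 36 in inAGTuC, and 38 and 40 in AGTuC. The median read length was 49 bases in Actb exons and 48 in its introns in scGRO–seq, 49 and 42 in inAGTuC, and 69 in both in AGTuC. The share of exon reads from mature RNA or from other gene copies was not tested. The Actb bins starting at 500 to 900 bases lie in the first intron, since the second exon starts at base 1063. In AGTuC they held 42, 121, 99, 124 and 57 of the 548 intron UMIs. In scGRO–seq they held 2, 1, 2, 2 and 2 of 65, and in inAGTuC the bin at 500 held 1 of 18. The AGTuC intron level of Actb and its change in exons over introns thus rest largely on reads near the start. Introns past these bins were not tested.

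Reads on the opposite strand also lay in the exons of these genes. In scGRO–seq 97 antisense UMIs fell in the Actb body exons and 19 in its introns, beside 389 and 65 sense UMIs. In AGTuC the counts were 4 and 58, beside 188 and 548. Tubb5 had 95 antisense UMIs in body exons in scGRO–seq, 49 in inAGTuC and 19 in AGTuC, beside 357, 82 and 387 sense UMIs. Actg1 had 9, 3 and 0 in its exons and 14, 8 and 0 in its introns. Of all UMIs on the span of a gene, on both strands, 19.2% were antisense for Actb and 20.7% for Tubb5 in scGRO–seq, below the 30.9% over all genes. The median over the batches was 17.2% for Actb (0 to 27.3%) and 12.7% for Tubb5 (3.03% to 42.9%). Exp236 held 90 of the 131 Tubb5 antisense UMIs. In inAGTuC the shares of Actb and Tubb5 were 28.2% and 32.7%, against 32.6% over all genes, and in AGTuC they were 7.03% and 2.52%, against 16.7%. Of the 64 Tubb5 antisense UMIs in inAGTuC, 43 came from Exp234_c11, where the share was 63.2%. The other inAGTuC libraries were at 8.70% to 23.5% for Tubb5.

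**Figure D3:**
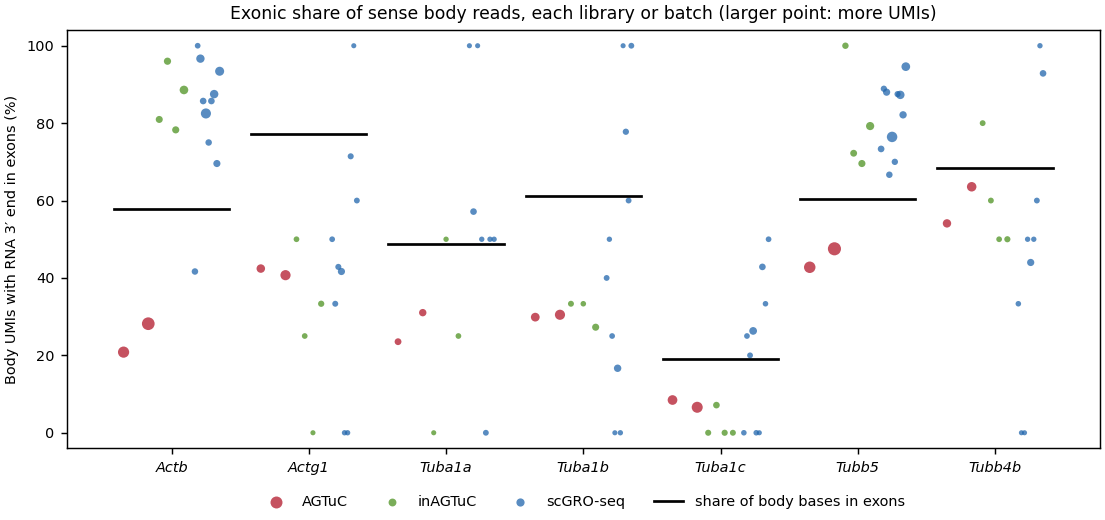
Percent of sense body UMIs whose RNA 3′ end lies in an exon (y axis) for each member (x axis), 1 point per library or batch, larger with more UMIs, and the share of body bases that is exonic (black line). For Actb and Tubb5 the AGTuC points lie below the line and below all other libraries and batches.

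Between scGRO–seq batches, 2 of 6 members tested differed beyond the spread between libraries of a batch, beside a similar share of all genes (31.7% of 11969). Exp246 had 1 library and adds nothing to that spread. Actb passed at an adjusted p of 0.0011 and Tubb5 at 0.022 (limma voom, F test). Exp208 and Exp264a had the highest Actb body levels (38.1 and 31.2), the next was Exp156 at 17.1, and Exp160 was lowest at 3.48 from 4 UMIs. The high levels lay in the exons, at 63.7 (58 of the 60 body UMIs) in Exp208 and 50.4 (85 of 91) in Exp264a, while the introns were at 3.02 and 4.89 beside a median of 4.24 over the batches. Tubb5 was highest in Exp264a at 20.5, with exons at 32.2 and introns at 2.79, below the median of 3.88 over the batches, and without this batch its adjusted p was 0.58, while that of Actb was 0.037. Actg1, Tuba1b, Tuba1c and Tubb4b were not called (adjusted p 0.084 to 0.99), and Tuba1a had too few UMIs to be tested.

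In all 10 batches Actb was read more per kb of body than each of Actg1, Tuba1a, Tuba1b, Tuba1c and Tubb4b. Of the 21 pairs of members, 16 differed (exact sign-flip test of the batch differences, two-sided, adjusted over the 21 pairs). Actb over Tubb5 did not, at log2 0.39 ± 0.64 (SD, n = 10 batches, exact p = 0.082, adjusted p = 0.10). Below these came Actg1, Tuba1b and Tubb4b, whose mutual differences of at most 0.19 were not called, and then Tuba1a and Tuba1c, which differed by 0.04. Counted in introns alone, 10 pairs differed, and Actb was below Actg1 (log2 -0.48, adjusted p = 0.41, exact) where the whole body had put it above by 2.31. The rank of Actb over Actg1 in scGRO–seq was thus not seen in introns. The calls of Actb and of Tubb5 over Tuba1b and Tubb4b were lost there too (adjusted p 0.33 to 0.59, exact sign-flip test), and the order of Actg1 and Tubb5 reversed. The unequal shares of exon bases with copies elsewhere also enter the whole-body order. On exon bases without an exact copy, scGRO–seq was at 19.8 in Actb, 13.4 in Tubb5, 10.9 in Tuba1b and 6.78 in Actg1. It was at 5.50 in Tuba1c, 4.84 in Tubb4b and 2.08 in Tuba1a, and the order on these bases was not tested.

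**Figure D4:**
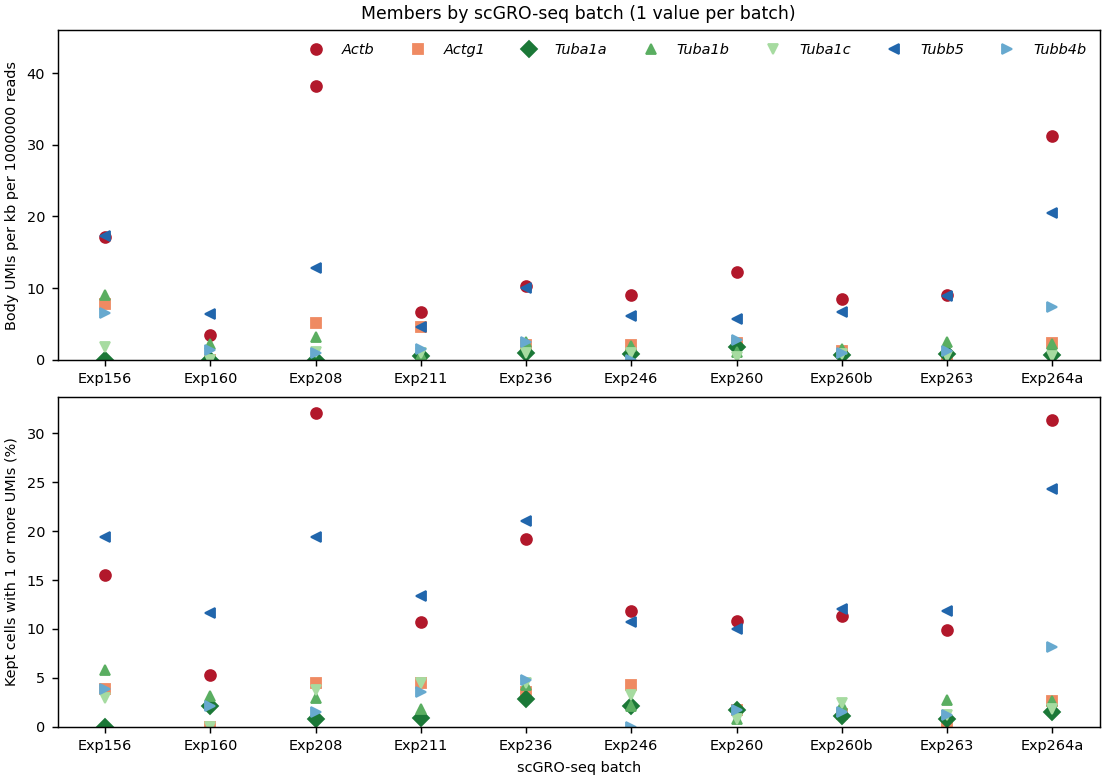
Body UMIs per kb per 1000000 kept reads (top) and percent of kept cells with at least 1 UMI (bottom) of each member by scGRO–seq batch (x axis), 1 value per batch. Actb reaches 38.1 in Exp208 and 31.2 in Exp264a and is at 17.1 or less in the other batches.

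In single cells, Actb and Tubb5 were seen in 426 and 425 of 2525 kept cells, or 16.9% (95% Wilson interval 15.5 to 18.4) and 16.8% (15.4 to 18.3). The other members were seen in 43 (Tuba1a) to 86 cells (Tubb4b), 1.70% to 3.41%. By batch the share for Actb ran from 5.26% (Exp160) to 32.1% (Exp208), with a median of 11.6%. The Tubb5 share ran from 10.0% to 24.4%. Kept cells had a median of 3430 UMIs, so a cell without a UMI is not a cell without transcription of the gene. Exons held 389 of the 454 Actb and 357 of the 435 Tubb5 body UMIs in scGRO–seq. The shares of cells, and the counts of cells below, therefore rest largely on exon reads, whose source was not tested.

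Cells with at least 2 UMIs were compared with the number expected when UMIs are permuted among the cells of a library, to ask whether reads of a gene came together in cells. For Actb 69 cells were seen and 60.4 expected, above expectation in 9 of 10 batches (two-sided exact sign-flip test, p = 0.025, adjusted p = 0.23). For Tubb5 60 were seen and 55.1 expected, above in 7 of 10 batches (exact p = 0.26, adjusted p = 0.89). Actg1 had 5 against 2.12, Tuba1b 3 against 1.89, Tuba1c 3 against 2.03, Tubb4b 3 against 2.47 and Tuba1a, not tested, 0 against 0.455. By batch, Actg1, Tuba1b, Tuba1c and Tubb4b were above expectation in 3, 2, 2 and 1 of 10, and below it in 6, 8, 7 and 8. A batch with 0 such cells counts as below however small its expectation, such as 8.0e-10 for Tuba1b in Exp260. The batches below therefore do not show fewer such cells than expected. No member was called, and no gene was (0.0% of 7744). At an unadjusted exact p under 0.05 there were 935 genes, or 12.1%, and 1 of the 6 members tested. The smallest exact p that 10 batches allow is 0.0020. UMIs on at least 2 different members were seen in 208 cells, against 216.6 expected (exact p = 0.95). Without Exp236, which holds 812 of the kept cells, the difference was 7.65 cells above expectation, and it was not called.

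**Figure D5:**
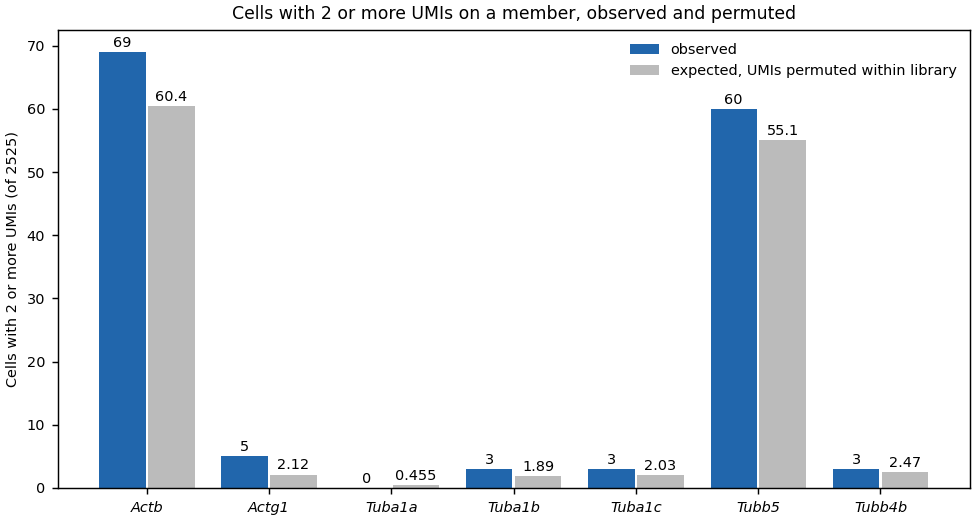
Number of kept cells, of 2525, with at least 2 UMIs on a member (y axis, linear from 0), as observed (blue) and as predicted when UMIs are permuted among cells within library (grey). Actb has 69 against 60.4 and Tubb5 60 against 55.1, and the other members have at most 5.

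Other genes of both systems were compared between AGTuC and inAGTuC, where 34.6% of all genes were called and 17.8% were higher. Of 27 genes of actin binding and nucleation, 9 rose and 1 fell in AGTuC, with a median log2 of 0.76, among them Cfl1, which severs filaments (2.09), Pfn1, which binds monomers (1.88), and Tmsb10, which sequesters them (2.42). Of 18 genes of tubulin folding and microtubule binding, 6 rose, with a median of 0.72, among them the tubulin cofactor Tbcc (2.10) and the chaperonin subunit Cct2 (1.17). Of 15 other tubulins 7 were tested, and Tubb3 (1.61) and Tubb2b (1.54) rose. Acta2, smooth muscle actin, was the only other actin tested, and it fell by 3.97. Of the 6 ES cell markers 5 rose, with a median of 1.72. The differences between these lists and the members were not tested. Over the 16 libraries and batches, the genes whose log2 body level was most like that of a member were Lamp1 (r = 0.86) and Rplp0 (r = 0.83) for Actb, Ccnd1 (0.92) and Kif20a (0.91) for Tubb5, Nol9 (0.92) and Trim71 (0.92) for Tuba1b, and Nanog (0.89) for Tubb4b. These points share assay and depth.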

How the data were processed

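Nascent RNA of V6.5 ES cells was measured in 82 samples. The authors deposited 1 read list per library, made with Cutadapt, Flexbar, Bowtie2 on mm10 and UMI-tools, in which an entry is 1 read left after UMI deduplication. The deposited score (3 to 44) is mapping quality. An entry was counted as 1 UMI at its RNA 3′ end, on the strand opposite to the read. Reads shared between libraries were left out, and cells were kept at 1000 UMIs and 750 features in libraries with at least 24 such cells. In all, 35 libraries of the 10 batches had kept cells.

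Windows were the first 500 bases of a RefSeq span, its rest (body) and the 5 kb past its end, cut at the next gene, with at least 2500 bases left. Levels are UMIs per kb per 1000000 kept reads. The files have no count column, so UMIs summed per batch or library were tested with limma 3.58.1 (voom, R 4.3.3), all assays in 1 fit, with Benjamini-Hochberg adjustment over all genes, at least 50 UMIs per gene and a threshold of 0.05. Windows were compared as an interaction, with the library as fixed block. Window fits required 50 UMIs in each window. They were first run with 50 over both windows together. On simulated data without change that setting put unchanged genes off 0, and it was replaced after the members' values under it had been seen. Whether the 0.5 that voom adds to low counts was the cause was not tested. The first setting is kept as an alternative. Expected multiplet cells are hypergeometric means.

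The members and gene lists were chosen with earlier results of these data known. Named genes are the members, at most 3 called genes per list and comparison with the largest changes, and the 2 genes most correlated with each member. Not all of these genes, nor all runs of bases shared between coding sequences, are reported here. Sequences are from RefSeq, and 6 of 7 members matched a promoter entry.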

Additional observations from a re-analysis of the deposited data

Results flagged for a closer look

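In 11 of the 68 groups of values by library or batch that were tested, 1 value stood apart from the rest (a gap beyond Dixon's 95% limit). Chance would flag about 1 in 20 groups of normally distributed values. These groups include low counts with ties at 0, as in the Actg1 promoter in scGRO–seq (6 of 10 batches at 0). The share that chance flags here was therefore not known. Most flagged values rest on few UMIs. Exp156 stood apart for the Actb exon share (41.7%, 12 UMIs), the Tuba1b body (9.11 UMIs per kb per 1000000, 5 UMIs), the Tubb5 promoter (71.8, 8 UMIs) and antisense reads on Tubb4b (5.29, 3 UMIs). It is the batch with the fewest kept reads. The Actg1 promoter reached 23.5 in Exp246 (5 UMIs), the Tuba1a promoter 10.9 in Exp160 (2 UMIs), the Tuba1a body 1.75 in Exp260 (2 UMIs) and the Tubb4b promoter 21.5 in Exp264a (10 UMIs). In inAGTuC, Exp208_c12 had 0 UMIs past the end of Tubb5, where the next lowest library was at 0.49, and 6.43 on the Tubb4b promoter (2 UMIs). Exp208_c14 was the inAGTuC library with exon reads on Tuba1c, at 7.14% of 14 body UMIs, and the others were at 0.

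Of the 23 scGRO–seq libraries outside the 10 batches, which entered no comparison, 1 is the copy of an inAGTuC library, and the other 22 held 110 body UMIs of the members.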

How the results depend on the processing

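Under the alternatives (reads, cells, filter, scaling, window, model and each library or batch left out), 1984 of 2047 values for single members or pairs kept their direction and side of the threshold, 48 lost the call, 13 gained one and 2 reversed. The reversed values were Actb over Actg1 (-0.48) and Actg1 over Tubb5 (0.59), both in introns alone, where 10 pairs were called instead of 16. For promoter over body in scGRO–seq against AGTuC, 1 member was called instead of 0 with all deposited reads and with cells kept by UMIs alone, and leaving out 1 batch or library gave 0 to 1 (1 without Exp156, Exp160, Exp234_c11 or Exp261_c16). For downstream over body in AGTuC against inAGTuC, 3 members were called instead of 5 without a minimum of UMIs and with limma trend, and leaving out 1 gave 1 to 6 (3 without Exp208_c14 or Exp261_c16, 1 without either AGTuC library). In scGRO–seq against AGTuC it gave 1 to 7, with 1 without either AGTuC library. For exons over introns in AGTuC against inAGTuC, 1 member was called with limma trend instead of 2. Between batches, 1 was called with upper-quartile scaling, 1 to 2 with a batch left out, and 3 with all deposited reads and with limma trend, under which Tubb4b also passed (adjusted p = 0.033 and 0.036). The difference for cells with UMIs on 2 or more members ran from -11.9 to 7.65 with a batch left out. Body level calls ran from 5 to 7 in both comparisons with AGTuC over all alternatives, experiment as a random block included. The causes were not tested. With 50 UMIs over both windows together, the setting replaced after its values were seen, 4 members were called downstream in AGTuC against inAGTuC. No paired analysis was possible because the labels' replicate numbers pair no libraries across assays, and of the experiments used Exp208 alone holds both scGRO–seq and inAGTuC. Members with under 50 UMIs in a window had no test there.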
